A study of Dunaliella salina with 9 samples.

Results

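Red light was compared with white light in cultures of Dunaliella salina, a unicellular green alga of salt waters that can store large amounts of β-carotene. The comparison used 6 of the 9 libraries of the series, chosen by their labelled light: 3 from cells under red light of 660 nm and 3 from cells under cool white light, both at a photon flux of 50 µmol m-2 s-1. All cells were grown under cold white fluorescent lamps at 22 °C with 14 h of light and 10 h of dark, and cells in mid-exponential growth were then inoculated into new medium for the light treatment. The sources used here do not give the strain, the culture dates or the time spent under each light. They also do not say whether the white cultures were moved to new medium at the same time. A batch, or such a move, and the light cannot be told apart. The design text calls the samples biological without saying which came from separate cultures. Where they did not, the p-values cover only the spread among these libraries, which may be technical.

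Chlorophyll absorbs both red and blue light, whereas carotenoids absorb mainly blue and green light, so a red lamp excites the photosystems with little absorption by carotenoids. Green algae also sense light through photoreceptors, and in the related alga Chlamydomonas an animal-like cryptochrome responds to red light as well as blue. In Dunaliella salina, β-carotene stored in plastid droplets is known to shield the photosynthetic machinery under strong light. The title of the series places the comparison within carotenoid synthesis. The deposited tables count reads on 115975 numbered transcript clusters with no gene name or sequence, and 0 of these identifiers matched the 16683 genes of the reference table for this species, so no enzyme or pathway is named here. A cluster is a numbered group of transcripts in the tables, and may stand for a gene, for an isoform or for an allele.

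Total counts were 24526786, 17674678 and 21732972 in red 1 to 3, and 18314153, 19888088 and 16279167 in white 1 to 3. Levels are given in CPM, counts per 1000000 counts of the library, with library totals scaled by TMM as described below. Where a library has a count of 0, the level may still reach 0.122 to 0.170 CPM in red and 0.151 to 0.184 CPM in white. These limits cover counting error only and use unscaled totals. In these bulk libraries, a change in the number of cells that use a transcript and a change in its amount per cell cannot be told apart.

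The red libraries were close to each other, and the white libraries were not. The distance between 2 libraries was taken as the share of the CPM that would have to be moved to other clusters to make one library like the other. It was 3.85% to 5.69% for the 3 red pairs and 24.0% to 35.9% for the 9 pairs of a red and a white library. Within white, white 1 was 24.5% from white 2 and 15.9% from white 3, and the last 2 were 9.74% apart. The largest distance within white thus exceeded the smallest distance between red and white. White 1 was the white library nearest to red, at 24.0% to 24.3% from the red libraries. White 3 lay at 29.3% to 30.1% from them and white 2 at 34.8% to 35.9%. The biological coefficient of variation, edgeR's estimate of the spread between libraries beyond counting error, was 33.9% in red and 76.2% in white.

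White 1 also lay between red and the other white libraries in single clusters. For clusters with at least 10 counts in all 6 libraries, the white library whose log2 CPM was nearest to the red mean was recorded. White 1 was the nearest in 61.2% of 1218 clusters that were higher in red, in 76.6% of 3571 clusters that were lower in red and in 58.9% of 13288 clusters that did not pass the test. White 1 was thus the nearest most often among clusters that did not pass the test too.

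In red, counts were spread over more clusters than in white. The number of most abundant clusters that together hold 50% of the counts was 529, 533 and 458 in red 1 to 3, against 438, 258 and 299 in white 1 to 3. Every red library thus needed more clusters than every white library, with white 1 the nearest. The mean was 507 ± 42.2 in red and 332 ± 94.3 in white (SD, n = 3 each), a ratio of 1.53. A two-sided exact permutation test gave p = 0.1, the smallest value 3 against 3 libraries allow. To hold 90% of the counts, 8194 ± 487 clusters were needed in red and 6462 ± 689 in white (SD, n = 3 each). The single most abundant cluster of a library held 1.07%, 1.02% and 1.02% of the counts in red 1 to 3, against 1.97%, 2.95% and 2.98% in white 1 to 3. The 100 most abundant held 25.7%, 25.5% and 26.8% in red 1 to 3, against 27.6%, 35.0% and 32.9% in white 1 to 3. These measures and the exponential of the Shannon entropy, 5 tests in all, each had exact permutation p = 0.1 and 0.1 after Benjamini-Hochberg adjustment.

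**Figure D1:**
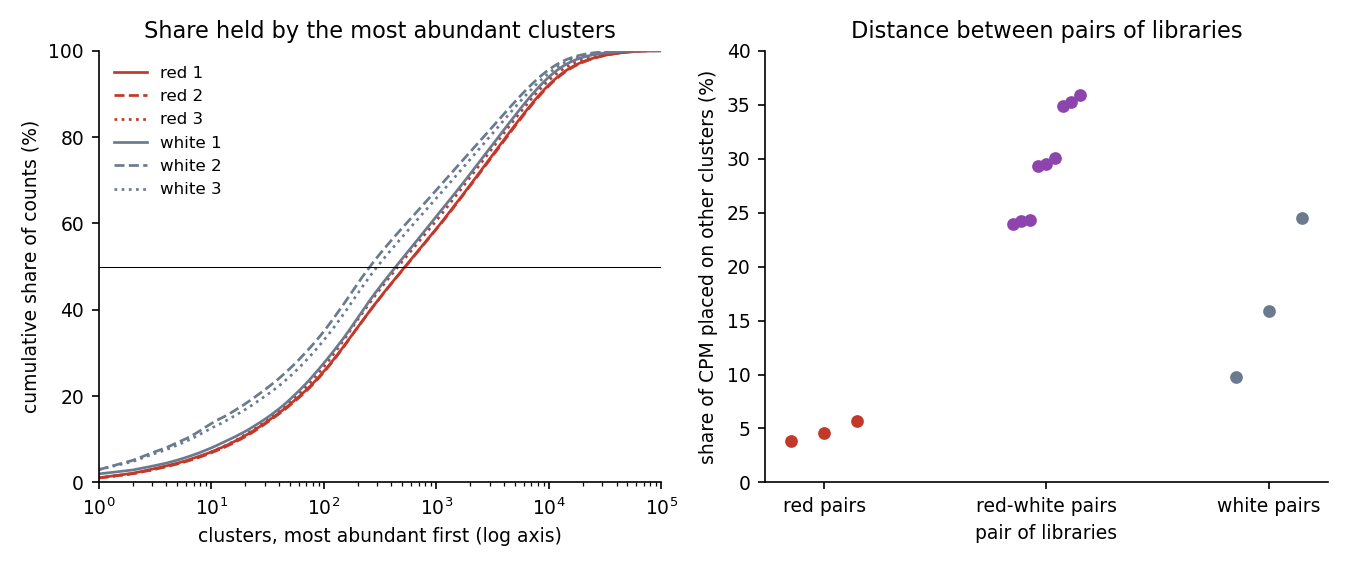
Left, cumulative share of counts (%) against the number of clusters taken from the most abundant down (log axis), 1 line per library; the line at 50% is crossed at 458 to 533 clusters in red and at 258 to 438 in white. Right, the share of CPM (%) placed on other clusters for each pair of libraries, 1 point per pair; red pairs lie at 3.85% to 5.69%, red-white pairs at 24.0% to 35.9% and white pairs at 9.74% to 24.5%.

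Of 33708 clusters with enough counts to be tested, 4388 rose (13.0%) and 4922 fell (14.6%) in red, together 27.6% of those tested. The test was edgeR's quasi-likelihood test on the red and white libraries, with a Benjamini-Hochberg adjusted p under 0.05 over all tested clusters. The called increases were larger than the called decreases, but they were of rarer clusters, with a median of 2.00 CPM against 12.6 CPM. Of the clusters that rose, 4076 did so at least 2-fold, 2581 at least 8-fold and 1166 at least 32-fold, and of those that fell, 3807, 1521 and 724 passed these folds. For these counts a cluster without a count in one light was set at a bound, with 3 counts over that group. With the same bounds the median log2 fold change, red over white, was 3.66 among the clusters that rose and -1.84 among those that fell. Among called clusters with at least 10 counts in all 6 libraries, the median absolute log2 fold change was 1.48 for rises and 1.35 for falls. Over all tested clusters the median log2 fold change was 0.20, with 50% of them between -0.79 and 1.35.

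The falls did not outnumber the rises in every analysis: of 20 alternatives, 11 called more rises than falls. Rises made up 47.1% of the calls here, 50.4% with DESeq2, 55.8% with limma-voom, 53.4% without white 1, 52.5% without white 2 and 57.0% without white 3. The split also moved with the scaling. TMM, the scaling used here, weighs down clusters with extreme ratios when it sets the scale of a library. With library totals in its place, 5218 clusters rose and 3456 fell (60.2% rises), and the median of all clusters was 0.49. The number of calls also depended on single libraries. Fits with 1 library left out called 17308 clusters without white 1, 9504 without white 2, 4134 without white 3, 2456 without red 1, 2633 without red 2 and 3166 without red 3. A set of 2102 clusters, 6.24% of those tested, was called in the same direction with all 6 libraries and after leaving out each of them in turn. Of these, 965 rose and 1137 fell. With bounds as above, their median log2 fold change was 6.37 for those that rose and -3.38 for those that fell. Of the 965, 486 had no count in any white library, so the value of 6.37 rests in large part on bounds and is no measured fold. Of the 1137, 181 had no count in any red library.

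The levels of nearly all called clusters separated the 2 lights, but so did those of many others. In 9297 of the 9310 called clusters, the red and white libraries did not overlap. Over all tested clusters this was so for 57.2%, with every red library above every white one in 32.6% and below in 24.6%.

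**Figure D2:**
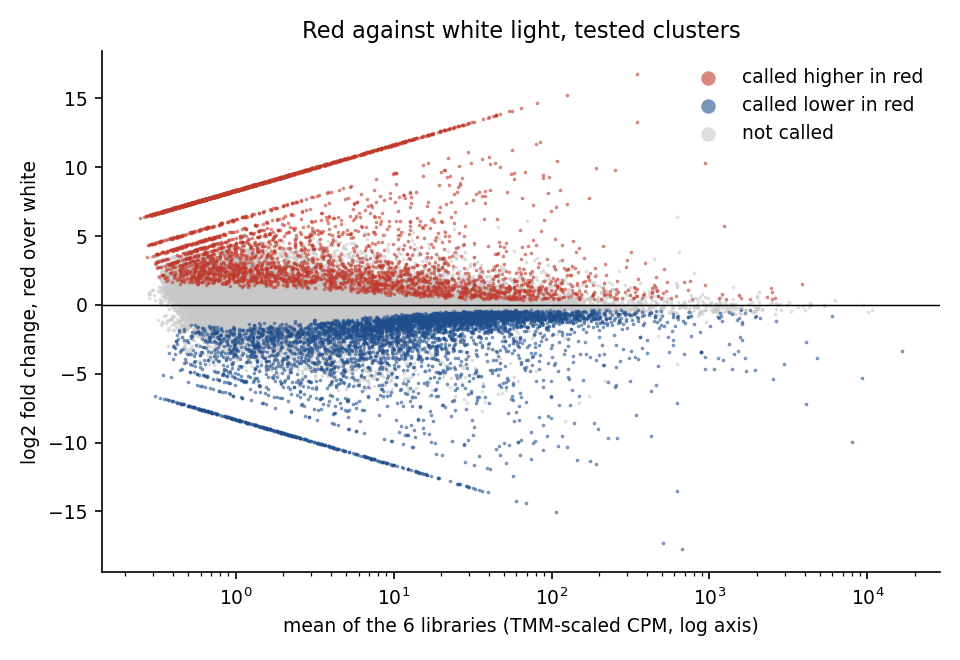
Log2 fold change, red over white, against the mean of the 6 libraries (TMM-scaled CPM, log axis), 1 point per tested cluster, with 4388 called higher in red, 4922 called lower and the rest not called. The straight outer lines are clusters with no count in one light, whose fitted fold follows from the level in the other light and is no measured fold.

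More of the called rises than of the called falls were of clusters with no count in the other light. Such clusters enter the test only through the light in which they are seen, and all 1426 tested clusters without a count in white were called, so their number is a description and not a test. Of the 4388 clusters that rose, 1426 (32.5%) had no count in any white library, and 2101 (47.9%) had counts in all 3. Of the 4922 that fell, 356 (7.23%) had no count in any red library, and 4160 (84.5%) had counts in all 3. Where the group with the lower level had counts in all its libraries, the median absolute log2 fold change was 1.97 for clusters that rose and 1.55 for those that fell. In counts the 1426 clusters were a small part, with 1.12%, 1.09% and 1.11% of the counts in red 1 to 3, whereas all 4388 clusters that rose held 15.8%, 15.8% and 15.9% in red 1 to 3 and 5.74%, 4.03% and 4.64% in white 1 to 3. Among the 24765 tested clusters with counts in all 6 libraries, 2101 rose (8.48%) and 4160 fell (16.8%). The clusters that rose from no count in white had bounds of at least 8.07-fold to 11123-fold, with a median of 35.3-fold. Those that fell to no count in red had bounds of at least 14.4-fold to 35145-fold, with a median of 90.1-fold.

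A count over all clusters, tested or not, showed the same difference but held mostly the same clusters. There were 1543 clusters with no count in white and at least 10 counts in every red library, and 353 with no count in red and at least 10 counts in every white library. Of these, 1426 and 348 were among the called clusters described above, so this count is no separate support. With each library thinned at random to the lowest of the 6 totals, there were 1340 and 353. With a minimum of 100 counts the numbers were 339 and 75, and 287 and 73 after thinning. Thinning made the totals equal but not the TMM-scaled totals, as the TMM factors were 1.06 to 1.16 in red and 0.835 to 0.999 in white. The part of this in the numbers was not tested. The 1543 clusters without a count in white took 1.13%, 1.11% and 1.12% of the counts in red 1 to 3. The 353 without a count in red took 0.714%, 0.485% and 0.422% of the counts in white 1 to 3. Both sets were defined by the red and white libraries, and their counts in blue were not looked at. Their median effective length, the length over which a read can start, was 2151 bases for the clusters seen in red and 1388 bases for those seen in white.

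**Figure D3:**
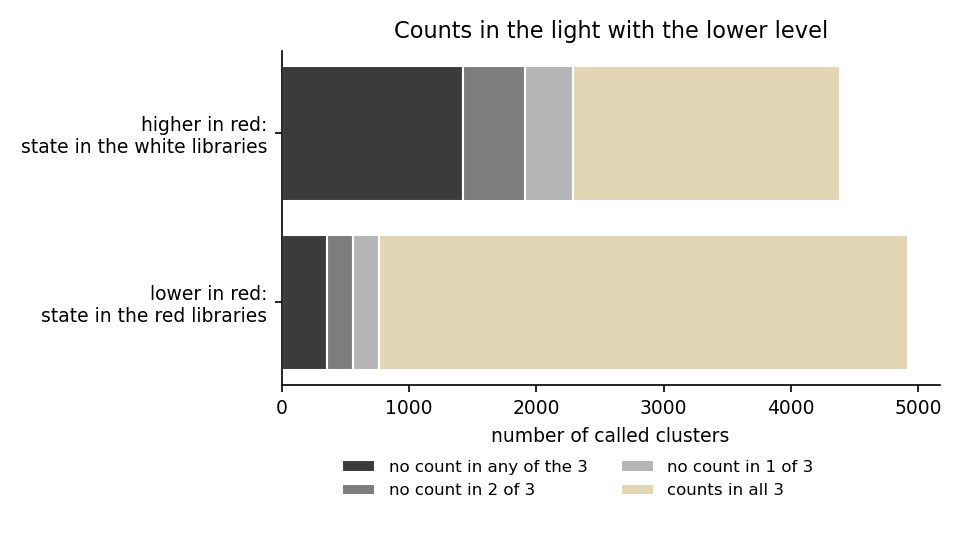
Number of called clusters by the counts in the light with the lower level: the white libraries for clusters higher in red (upper bar) and the red libraries for clusters lower in red (lower bar). No count in any of the 3 libraries was found for 1426 of 4388 clusters higher in red and for 356 of 4922 lower in red.

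Abundant clusters fell more often than they rose in red. Above a mean of 100 CPM over the 6 libraries, 167 clusters rose and 415 fell (29.9%). In the class from 10 to 100 CPM, 893 clusters (9.89%) rose and 2326 (25.8%) fell. Between 1 and 10 CPM there were 1863 rises and 1821 falls. The rarest clusters, under 1 CPM, had 1465 rises (19.1%) and 360 falls (4.69%). More falls than rises from 10 to 100 CPM were found in all 19 alternatives that tested this class, and above 100 CPM in 18 of 19. With library totals, 277 rose and 274 fell above 100 CPM. Under 1 CPM, called falls outnumbered called rises when a red library was left out. There were 17, 25 and 82 rises and 91, 126 and 129 falls without red 1, red 2 and red 3. The median log2 fold change of this class stayed at 1.03, 0.99 and 1.07 in those fits, against 1.035 with all 6 libraries. With the replicate number as a block, no cluster of this class was called.

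The reach of the test differed between these classes. The smallest absolute log2 fold change that passed was 1.38 under 1 CPM and 0.35 above 100 CPM. The median standard error of the log2 fold change was 0.85 and 0.18 in those classes.

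Long clusters rose more often in red than short ones, and short ones fell more often. The effective length was known for 25342 tested clusters. Above 4000 bases, 446 clusters rose (16.8%) and 192 fell (7.23%), with a median log2 fold change of 0.82. From 2000 to 4000 bases, 978 rose and 913 fell, with a median of 0.32. Called falls outnumbered called rises here in 5 of 19 alternatives. Among them were those without red 1 (329 rose and 348 fell), red 2 (342 and 359) and red 3 (387 and 415). Whole counts only (221 and 295) was another. The median of this class stayed between 0.089 and 0.61 in all alternatives. From 300 to 1000 bases, 597 rose (10.4%) and 1258 fell (22.0%), with a median of -0.29. Under 300 bases, 272 rose (12.6%) and 447 fell (20.7%), with a median of -0.10. In both of these classes, called falls outnumbered called rises in all 19 alternatives. From 1000 to 2000 bases, 919 rose (11.4%) and 1676 fell (20.9%), with a median of -0.15. The sign of these medians depended on the scaling. With library totals they were 0.02 from 300 to 1000 bases, 0.20 under 300 bases and 0.16 from 1000 to 2000 bases. In the last, 1207 then rose and 1157 fell. The class above 4000 bases had the highest median of the 5 length classes in all 17 alternatives that change the fit, between 0.47 and 1.36. The class from 300 to 1000 bases had the lowest in 15 of 17.

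The order by length was also seen among abundant clusters in the share that fell, and only in part in the share that rose. With a mean of at least 10 CPM, the share that fell was 42.2% of 270 clusters under 300 bases, 35.4% from 300 to 1000 bases, 20.4% from 2000 to 4000 bases and 9.70% of 1361 above 4000 bases. The share that rose was 8.89% under 300 bases, 6.18% from 300 to 1000 bases and 14.3% above 4000 bases. From 2000 to 4000 bases, 414 of these clusters rose and 667 fell, with a median log2 fold change of 0.03.

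Summed counts separated the 2 lights in the class under 300 bases and in no other length class. Clusters under 300 bases took 2.76%, 2.96% and 3.003% of the counts in red 1 to 3, against 4.12%, 7.43% and 6.43% in white 1 to 3. All 3 red libraries lay below all 3 white ones, with white 1 the nearest. From 300 to 1000 bases the share was 22.7% ± 0.769 in red and 24.8% ± 2.69 in white (SD, n = 3 each). From 1000 to 2000 bases it was 35.4% ± 0.359 in red and 34.7% ± 1.01 in white (SD, n = 3 each). In both classes the groups overlapped. Clusters above 4000 bases took 10.9% ± 0.443 in red and 10.9% ± 1.56 in white (SD, n = 3 each). Those from 2000 to 4000 bases took 26.2% ± 0.604 in red and 22.2% ± 3.92 in white (SD, n = 3 each), and the groups overlapped, with 25.5% in red 3 and 26.4% in white 1. Measures of RNA integrity are not given in the sources used here, and their part in the order by length was not tested.

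**Figure D4:**
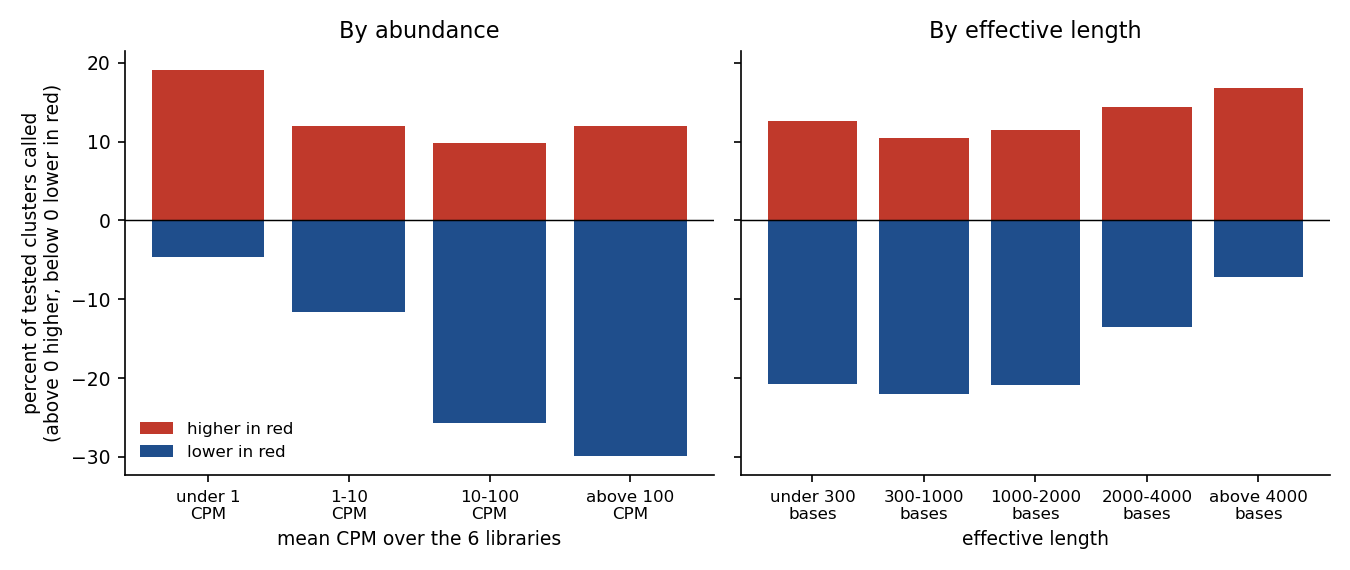
Percent of tested clusters called higher (above 0) or lower (below 0) in red, by mean CPM over the 6 libraries (left) and by effective length (right). Falls make up 4.69% of the clusters under 1 CPM and 29.9% above 100 CPM, and 20.7% under 300 bases and 7.23% above 4000 bases.

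A few clusters carried much of the loss of TMM-scaled CPM in red. On that scale the summed loss was 404962 CPM and the summed gain 187441 CPM, and both sums depend on the scaling. Summed over the 15253 tested clusters with a lower mean CPM in red, 113 clusters made up 50% of the loss, and the 10 with the largest difference made up 24.7%. The gain was spread wider, as 404 of 18455 clusters made up 50% of it and the top 10 made up 9.50%. Of the 100 clusters with the largest loss, 78 passed the test and 51 also passed after leaving out each library in turn. Of the 100 with the largest gain, 58 and 38 did. The median effective length was 1367 bases for the 100 with the largest loss and 2292 bases for the 100 with the largest gain.

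By rule, 4 clusters are named: in each direction, the one with the largest fold and the one with the largest difference in mean CPM. They were taken from 1218 called clusters that were higher and 3565 that were lower in red with no overlap between the lights and at least 10 counts in all 6 libraries, so that the level was measured in both lights. Their function is not given in the files.

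Cluster-15686.48405 (effective length 1405 bases) had the largest measured increase. It stood at 319, 335 and 376 CPM in red 1 to 3, against 0.881, 1.95 and 1.99 CPM in white 1 to 3. The 3 red libraries were alike and all far above white. The mean was 344 ± 29.5 CPM in red and 1.61 ± 0.630 CPM in white (SD, n = 3 each). The log2 fold change was 7.74 ± 0.39 (SE), or 214-fold, with an edgeR adjusted p of 0.00054. The level in white rested on 16.3, 31.5 and 28.2 estimated counts in white 1 to 3. These are not whole numbers, as can arise when reads are divided between clusters.

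Cluster-15686.47652 (1265 bases) had the largest gain in CPM. It stood at 5519, 5357 and 6071 CPM in red 1 to 3, against 2208, 1861 and 1968 CPM in white 1 to 3. This was a change between high levels, and both groups were narrow. The mean was 5649 ± 374 CPM in red and 2012 ± 177 CPM in white (SD, n = 3 each). Its log2 fold change was 1.49 ± 0.12 (SE), or 2.81-fold, with an edgeR adjusted p of 0.0012. Per kilobase of effective length it ranked 20 in red and 126 in white among the 25342 clusters with a length.

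Cluster-15686.49445 (5656 bases) had the largest measured decrease. It stood at 23.1, 15.8 and 7.95 CPM in red 1 to 3, against 6492, 21573 and 19470 CPM in white 1 to 3. The white libraries differed by more than 3-fold among themselves, with white 1 the lowest, and every red library was far below them. The mean was 15.6 ± 7.59 CPM in red and 15845 ± 8168 CPM in white (SD, n = 3 each). The log2 fold change was -9.99 ± 0.82 (SE), or 1014-fold lower in red, with an edgeR adjusted p of 0.0016. Per kilobase it ranked 16645 in red and 57 in white.

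Cluster-15686.47726 (7706 bases) had the largest loss in CPM and alone took 2.63% of the counts in white on average. It stood at 3489, 2903 and 2349 CPM in red 1 to 3, against 19905, 35752 and 34487 CPM in white 1 to 3. White 1 was again the lowest of the white libraries and still above all red ones. The mean was 2913 ± 570 CPM in red and 30048 ± 8807 CPM in white (SD, n = 3 each). The log2 fold change was -3.37 ± 0.30 (SE), or 10.3-fold lower in red, with an edgeR adjusted p of 0.0018. Both clusters named for a fall are longer than 4000 bases, a class in which more clusters rose than fell.

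All 4 named clusters passed in every alternative that tested them and after leaving out each library. All 4 had counts that were not whole in all 6 libraries, and the part of such a division in these values was not tested. In the blue libraries, scaled together with the others, Cluster-15686.48405 averaged 192 ± 23.1 CPM and Cluster-15686.47652 3758 ± 121 CPM (SD, n = 3 each). Cluster-15686.49445 stood at 22.1, 62.3 and 277 CPM in blue 1 to 3, and Cluster-15686.47726 at 3736, 6804 and 9974 CPM. On that scale the first of these 4 averaged 365 CPM in red and 1.70 CPM in white, the second 5990 and 2128 CPM, the third 16.6 and 16712 CPM, and the last 3090 and 31722 CPM.

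**Figure D5:**
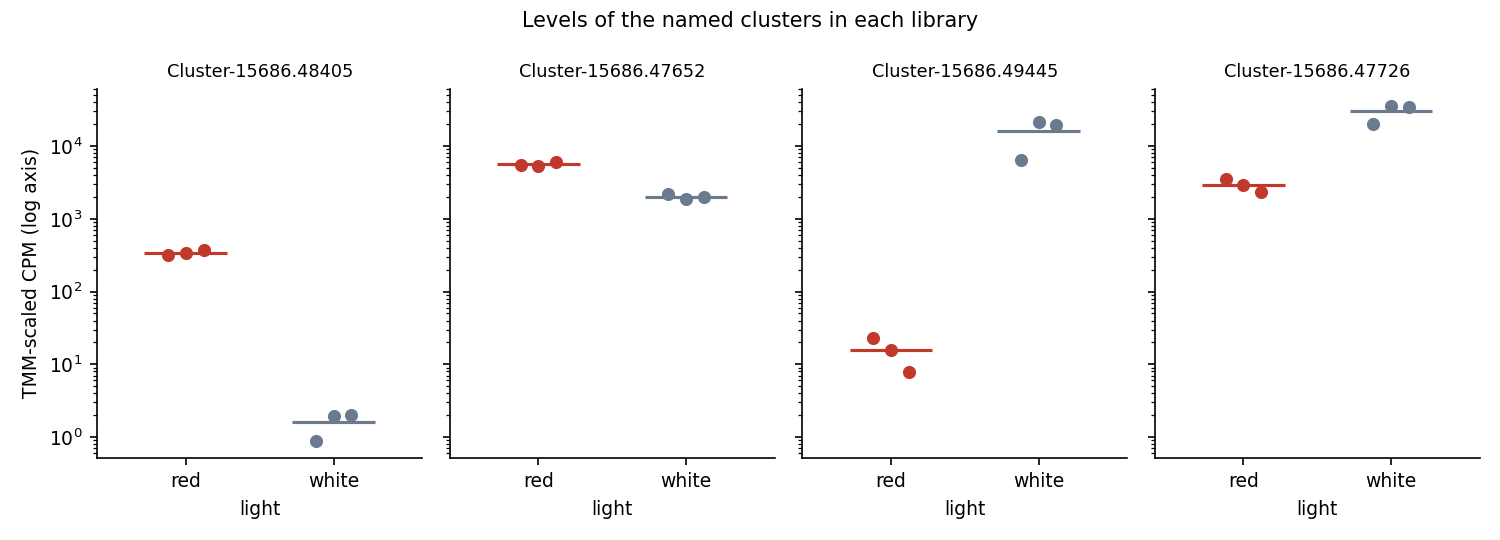
TMM-scaled CPM (log axis) of the 4 named clusters in each red and white library; points are libraries and lines are means. The points of Cluster-15686.49445 lie at 7.95 to 23.1 CPM in red and at 6492 to 21573 CPM in white. In all 4 panels red and white do not overlap, which the rule for named clusters required.

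Calls were made among clusters with whole counts and among clusters without. Of 8244 tested clusters with whole counts in all 6 libraries, 831 rose (10.1%) and 1709 fell (20.7%). Of 12053 with counts that were not whole in all 6, 1059 rose (8.79%) and 1776 fell (14.7%). A count of 0 is whole, so clusters without a count in a library cannot be in the second class, and no difference is read from these shares.

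Identifiers have a first and a second number, and 33556 of the tested clusters share the first number 15686. The 152 tested clusters with other first numbers had 35 rises and 28 falls, or 41.4%, at a median of 0.589 CPM.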

How the data were processed

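Total RNA of 6 samples, 3 under red and 3 under white light, was analysed; the 3 blue libraries were used in 1 alternative fit and for 4 clusters. Per the labels' protocols, RNA was taken with Trizol and libraries were made from 1.5 µg with the NEBNext Ultra kit. The submitters' processing notes name DESeq 1.10.1; the aligner, counter, assembly and annotation are not given in the sources used here. The read counts deposited by the authors are estimated counts, not scaled: in each library, 21.6% to 33.9% of values are not whole numbers. The FPKM values deposited by the authors were used only to derive effective lengths, as the median over libraries with at least 50 counts.

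Estimated counts were rounded. Clusters passing edgeR's filterByExpr (minimum count 10, total 15) held 98.7% to 99.3% of the counts. After TMM scaling, a robust quasi-likelihood model with light as the only term was fitted to the 6 libraries in edgeR 4.0.16 (R 4.3.3). CPM values are TMM-scaled; shares of counts use unscaled counts. Standard errors were derived from the log2 fold change and the test statistic. The code was tested on simulated data. Thinning drew counts at random to 16279006 per library. Where a light had no counts, folds are bounds against 3 counts over its group.

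No pair of libraries within a light was alike within sampling noise (chi-square per cluster 8.14 or more, where repeat runs of 1 library give about 1). Alternatives were RLE factors, library totals, DESeq2 1.42.0, limma-voom (limma 3.58.1) with and without weights per light, other filters, all 9 libraries, the replicate number as a block, libraries left out, stricter thresholds, whole counts, summed identifiers and removal of the 100 most abundant clusters. The comparison, the classes and the alternatives were chosen with earlier results of these data known. The rule for named clusters asked for adjusted p under 0.05, no overlap, at least 10 counts in every library and, for the largest fold, a mean of at least 10 CPM.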

Additional observations from a re-analysis of the deposited data

How the results depend on the processing

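The 9310 calls became 3850 with a mean of at least 10 CPM (10425 clusters tested), 2857 at an adjusted p under 0.01, 3333 among clusters with whole counts only (8197 tested) and 91 with counts summed over the first number of the identifier, which leaves 215 features. Leaving out 1 library gave 2456 to 17308. Apart from the block below, the other alternatives stayed within 1.5 times, with 9032 for RLE factors, 13591 for DESeq2, 11912 and 11164 for limma-voom without and with weights per light, 6784 with no filter and 13012 with all 9 libraries. Rises made up 47.1% of the calls, and 27.9% to 60.2% over the alternatives. With the replicate number as a block there were 774 calls, 216 rises and 558 falls, with none under 1 CPM and with 76 rises and 152 falls from 2000 to 4000 bases. The sources used here do not say whether same-numbered red and white libraries belong together. The correlations of their deviations from the group means were 0.053, 0.03 and 0.001. With so few libraries these values cannot decide it. The red minus white difference in the number of clusters that hold 50% of the counts, 175, was 138 to 228 with 1 library left out and 160 to 175 in the other alternatives. No named cluster changed direction or lost its call; the highest adjusted p was 0.043, under the block. No absolute log2 fold change under 0.35 was called above 100 CPM, and none under 1.38 was called under 1 CPM. The cause of the differences between alternatives was not tested.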
